A study of Rattus norvegicus with 8 samples.

Results

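The kinesin motor genes are the rows of the deposited gene tables whose symbol is Kif followed by a number, with a mean expected count of 10 or more over the libraries. The tables list 29 such rows among 17168 genes, and 23 of them met the minimum. All 23 also passed the low-count filter and entered the test of 11631 genes. RNA was sequenced from medial prefrontal cortex homogenate of male Sprague-Dawley rats, in 4 libraries from rats with high motor impulsivity (HI1 to HI4) and 4 from rats with low motor impulsivity (LI1 to LI4). HI rats made premature responses in the top quartile of the one-choice serial reaction time task, and LI rats in the bottom quartile. The task asks a rat to hold back a response until a cue light. The labels give no age. They do not state that each library is a separate animal, so p-values judge group differences against the spread between these libraries.

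Kinesins are ATP-driven motors that walk along microtubules. In neurons, members of the kinesin-1, kinesin-2 and kinesin-3 families carry vesicles, mitochondria, receptors and cytoskeletal proteins from the cell body into axons and dendrites. Other members build and divide the mitotic spindle and are made mainly by dividing cells, which are rare in adult cortex. Of the 23 genes, 12 are transport motors, 5 are mitotic, 2 act on microtubule ends (Kif2a and Kif19), 2 belong to cilia (Kif27 and Kif9) and 2 are the atypical Kif26a and Kif26b. The rows of 6 other kinesins fell below the minimum. Kif12 and Kif2b were listed at 0 in all 8 libraries. The others are mitotic motors, with expected counts per library of 4 to 15 for Kif11, 1 to 5 for Kif18a, 1 to 11 for Kif18b and 1 to 7 for Kif2c. Kif1a, Kif17 and Kif21a were not among the 29 rows, so they were not analysed here.

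Promoter letters were compared between the mitotic and transport motors as a description, with no test. A RefSeq promoter entry (assembly GRCr8) was matched by symbol for 18 of the 23 genes, 9 of them transport and 5 mitotic, and the 250 bases before the start were searched on both strands for 9 motifs. The 3 described first were picked after the matches had been seen. The cell cycle homology element TTTGAA is, with an upstream CCAAT box, a known feature of promoters of genes used late in the cell cycle. It lay in 4 of 5 mitotic promoters (Kif15, Kif20b, Kif22 and Kif23) and in 0 of 9 transport promoters, in Kif26b besides, and in 16.2% of all 33469 promoter windows of the same length. CCAAT lay in 4 of 5 mitotic promoters (Kif20a, Kif20b, Kif22 and Kif23), in 3 of 9 transport promoters (Kif1b, Kif3b and Kif5b) and in 34.0% of all windows. The GC box GGGCGG, a site for Sp family factors, lay in 8 of 9 transport and 4 of 5 mitotic promoters, against 30.5% of all windows. The share of G and C letters was 52.4% to 72.8% in the transport and 49.6% to 66.4% in the mitotic windows, against a median of 51.2% over all windows. The part of this composition in the GC box matches was not tested. The other 6 motifs were TTCGAA, a variant of the cell cycle element, the cyclic AMP element TGACGTCA, the E box CACGTG, the palindromic NRF1 site and the E2F sites TTTGGCGC and TTCGCGCC. TGACGTCA lay in Kif15 and Kif5c, against 1.59% of all windows, and the other 5 in 0 of the 18 promoters, against 0.406% to 5.59%. These are matches of letters, not measured binding. Below are a pair of mitotic promoters and those of Kif1b and Kif3b, whose groups did not overlap, 5′ to 3′ on the gene's strand and ending just before the start, with TTTGAA and CCAAT in capitals, also where they read on the other strand (TTCAAA and ATTGG). Kif20b is at chr1:241840766-241841015 on the plus strand, Kif22 at chr1:191080879-191081128 on the minus strand, Kif1b at chr5:165025849-165026098 on the minus strand and Kif3b at chr3:162218438-162218687 on the plus strand.
Kif20b: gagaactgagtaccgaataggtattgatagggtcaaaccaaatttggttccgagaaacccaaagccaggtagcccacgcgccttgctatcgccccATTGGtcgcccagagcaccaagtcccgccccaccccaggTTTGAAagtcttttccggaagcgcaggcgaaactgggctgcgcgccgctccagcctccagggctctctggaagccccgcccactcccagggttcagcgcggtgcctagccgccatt
Kif22: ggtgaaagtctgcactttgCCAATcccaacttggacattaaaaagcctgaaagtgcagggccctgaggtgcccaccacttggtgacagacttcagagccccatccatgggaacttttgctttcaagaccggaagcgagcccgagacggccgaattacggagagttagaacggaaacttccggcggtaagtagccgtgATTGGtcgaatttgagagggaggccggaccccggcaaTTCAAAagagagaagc
Kif1b: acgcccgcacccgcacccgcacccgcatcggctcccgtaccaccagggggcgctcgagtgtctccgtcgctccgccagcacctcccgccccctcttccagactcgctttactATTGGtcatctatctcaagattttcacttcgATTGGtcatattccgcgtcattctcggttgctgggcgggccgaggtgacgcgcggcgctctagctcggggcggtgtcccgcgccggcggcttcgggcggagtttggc
Kif3b: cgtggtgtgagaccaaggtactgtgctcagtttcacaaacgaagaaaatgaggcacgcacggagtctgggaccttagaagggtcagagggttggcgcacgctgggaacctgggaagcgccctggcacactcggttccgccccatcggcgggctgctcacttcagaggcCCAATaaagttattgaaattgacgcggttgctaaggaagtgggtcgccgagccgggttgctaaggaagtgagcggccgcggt
In Kif20b the inverted CCAAT box began 155 bases before the start and TTTGAA 116 bases before it. Kif22 held a direct CCAAT box 231 bases, an inverted one 53 bases and an inverted TTTGAA 16 bases before the start. The Kif1b window held inverted CCAAT boxes 138 and 107 bases before the start, and Kif3b a direct one at 82 bases.

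Total counts were between 7354416 and 9476656 per library, and the kinesin genes took between 0.304% and 0.519% of them. HI4 and LI3 stood apart from the other 6 libraries on the first principal component and had the least ribosomal RNA, 0.406% and 0.418% of counts, against 25.5% in HI2. All 12 cortical neuron markers were detected, and the glutamate transporter gene Slc17a7 stood at 636 CPM per kilobase. CPM is the count scaled to the TMM-adjusted library size, and dividing it by transcript length allows levels of different genes to be compared.

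The transport motors made up nearly all transcripts of the 23 genes. Summed over the 23 genes and per kilobase, they took 95.3% on average (95.0% to 95.7% over the 8 libraries), and the mitotic motors 0.652% (0.449% to 0.844%). The C-terminal kinesins Kifc2 and Kifc3, outside the name pattern, stood at 144 and 17.4 CPM per kilobase and are not in this sum. Kif5a, a neuronal kinesin-1 heavy chain, had the highest level at 404 ± 69.5 CPM per kilobase (SD, n = 8). Kif5c, its other neuronal paralogue, followed at 151 ± 27.8, and Kif1b, a kinesin-3 motor of mitochondria and synaptic vesicle precursors, at 128 ± 31.4, a pair whose order was within their spread. Next came the kinesin-2 motors Kif3c at 74.6 ± 7.66 and Kif3a at 62.1 ± 11.2 CPM per kilobase, then Kif5b, the kinesin-1 heavy chain found in most cells, at 50.3 ± 14.3. Kif1c, a vesicle motor of many cell types, stood at 30.9 ± 4.60 and Kif2a, which takes apart microtubule ends and limits axon branching, at 30.8 ± 6.53, and these did not differ beyond their spread. Kif21b, a motor of dendrites that also restrains microtubule growth, stood at 23.5 ± 4.45 and Kif3b at 17.6 ± 1.43 CPM per kilobase. The endosome motors Kif13a, Kif13b and Kif16b were the lowest of the transport motors, at 4.82 ± 0.735, 4.19 ± 0.847 and 2.65 ± 0.469.

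Levels of the mitotic motors lay below those of all transport motors except that Kif20a, which acts in cytokinesis, stood at 3.62 ± 0.620 CPM per kilobase, above Kif16b. The mitotic Kif23, of the central spindle, stood at 1.17 ± 0.220, Kif15, a spindle motor, at 0.760 ± 0.170, Kif22, which binds chromosome arms, at 0.573 ± 0.254 and Kif20b, of cytokinesis, at 0.270 ± 0.0674. On the same scale the proliferation marker Mki67 stood at 0.722 and Top2a at 0.376. In the RefSeq gene table the Kif20a gene overlaps the coding gene Cdc23, and none of the sources says if counting was stranded. The overlap was judged from whole gene spans, without regard to exons or strand, so whether reads are shared was not tested. Kif27, Kif9, Kif2a, Kif19, Kif15 and Kif3c also overlap a coding gene. The levels of Kif27, Kif9, Kif26a, Kif26b and Kif19 lay between 1.05 and 3.27 CPM per kilobase.

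**Figure D1:**
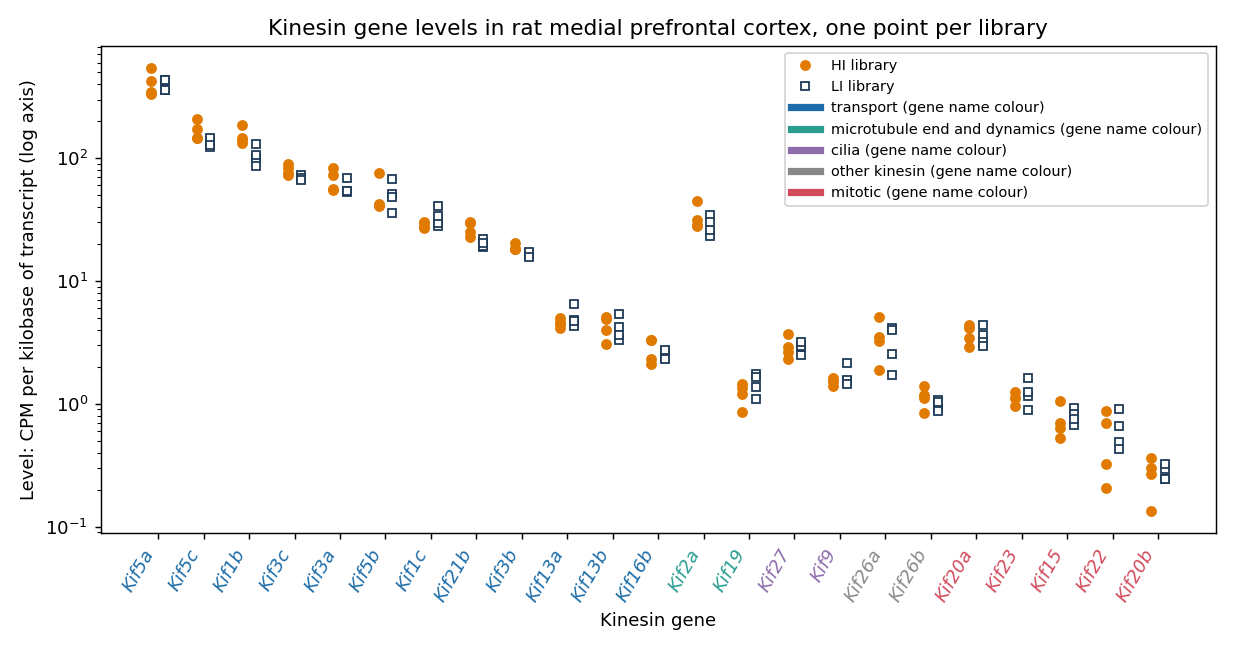
Level of each of the 23 kinesin genes in CPM per kilobase on a log axis, one filled circle per HI library and one open square per LI library, with gene names coloured by class. Transport motors span 2.65 to 404 CPM per kilobase on average and mitotic motors 0.270 to 3.62, and the libraries of a gene lie close together compared with the differences between genes.

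The comparison of HI with LI asks which transcripts differ between rats of high and low motor impulsivity. By the quasi-likelihood test of edgeR, 0 of the 23 kinesin genes had an adjusted p under 0.1, as did 0 (0%) of all 11631 genes. At an unadjusted p under 0.05 there were 3 kinesins higher in HI (Kif1b, Kif21b and Kif5c) and 0 lower, where 3.07% of all genes were higher and 1.09% lower. In Kif1b, Kif21b and Kif3b every HI library lay above every LI library, which held for 2.31% of all genes, and in 0 kinesins did every HI library lie below, against 1.14%. DESeq2, limma-voom and limma on log2 TPM called 0 kinesins, DESeq2 having called 0.327% of all genes. DESeq2 gave no adjusted p for some low-count members, among them Kif19, Kif20b, Kif22, Kif23 and Kif26b, and so could not call them. Fisher's exact test on summed counts, which leaves out the spread between libraries, called 12 kinesins, 7 higher and 5 lower, and 56.7% of all genes. The log2 fold change (HI minus LI) was above 0 in 14 of 23, against 48.5% of all genes.

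Transport and mitotic motors are given by their counts and medians, with no test between them. Among the 12 transport motors 9 were above 0, with a median log2 fold change of 0.15, and among the 5 mitotic motors 1 was, with a median of -0.13, where the median over all genes was -0.01. The transport median was 0.08 without HI4, and the mitotic median was 0.00 without HI3, 0.01 without LI3, -0.08 without HI1 and -0.04 without LI2. With the oligodendrocyte marker level as a covariate, added after seeing the data, the transport median was 0.22 and the mitotic median 0.01.

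Kif1b, the kinesin-3 motor, had 804, 853, 873 and 1119 CPM over the HI libraries 1 to 4 and 596, 792, 638 and 521 CPM over the LI libraries 1 to 4. HI4 was the highest library, and LI2, the highest of LI, came close to HI1. Group means were 912 ± 141 and 637 ± 114 CPM (SD, n = 4 each). This gave a log2 fold change of 0.52 ± 0.16 (SE, adjusted p = 1, edgeR). It was 0.41 without HI4, 0.64 without LI2 and 0.41 without HI4 and LI3 together.

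Kif21b, the dendritic motor, had 122, 136, 162 and 159 CPM over the HI libraries 1 to 4 and 117, 101, 103 and 111 CPM over the LI libraries 1 to 4. HI1, the lowest of HI, came close to LI1, the highest of LI. Means were 145 ± 19.2 and 108 ± 7.62 CPM (SD, n = 4 each), and the log2 fold change was 0.43 ± 0.12 (SE, adjusted p = 1, edgeR). It lay between 0.37 and 0.50 when single libraries were left out, and was 0.35 without HI4 and LI3 together.

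Kif3b forms with Kif3a the heterotrimeric kinesin-2 that serves cilia and dendritic cargo. It had 102, 102, 114 and 101 CPM over the HI libraries 1 to 4 and 91.2, 94.8, 95.8 and 87.8 CPM over the LI libraries 1 to 4. HI3 stood above the other HI libraries, and this gene varied least of the 23 over the libraries, with a coefficient of variation of 8.16%. The log2 fold change was 0.18 ± 0.09 (SE, adjusted p = 1, edgeR). Its partner Kif3a, at 125, 129, 165 and 188 CPM in HI and 123, 121, 158 and 122 CPM in LI, overlapped between groups, with a log2 fold change of 0.21 ± 0.16, or 0.09 without HI4. Kif3c, the alternative partner of Kif3a, had 247, 282, 304 and 259 CPM in HI and 237, 250, 237 and 225 CPM in LI, overlapping only in that LI2 lay above HI1, and a log2 fold change of 0.20 ± 0.10. Kifap3, the shared accessory subunit of kinesin-2, had a log2 fold change of 0.02 ± 0.13. Per kilobase, in a ratio chosen after its values were seen, Kif3a stood at 0.678 ± 0.142 times the sum of Kif3b and Kif3c in HI and 0.672 ± 0.0929 times in LI (SD, n = 4 each).

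**Figure D2:**
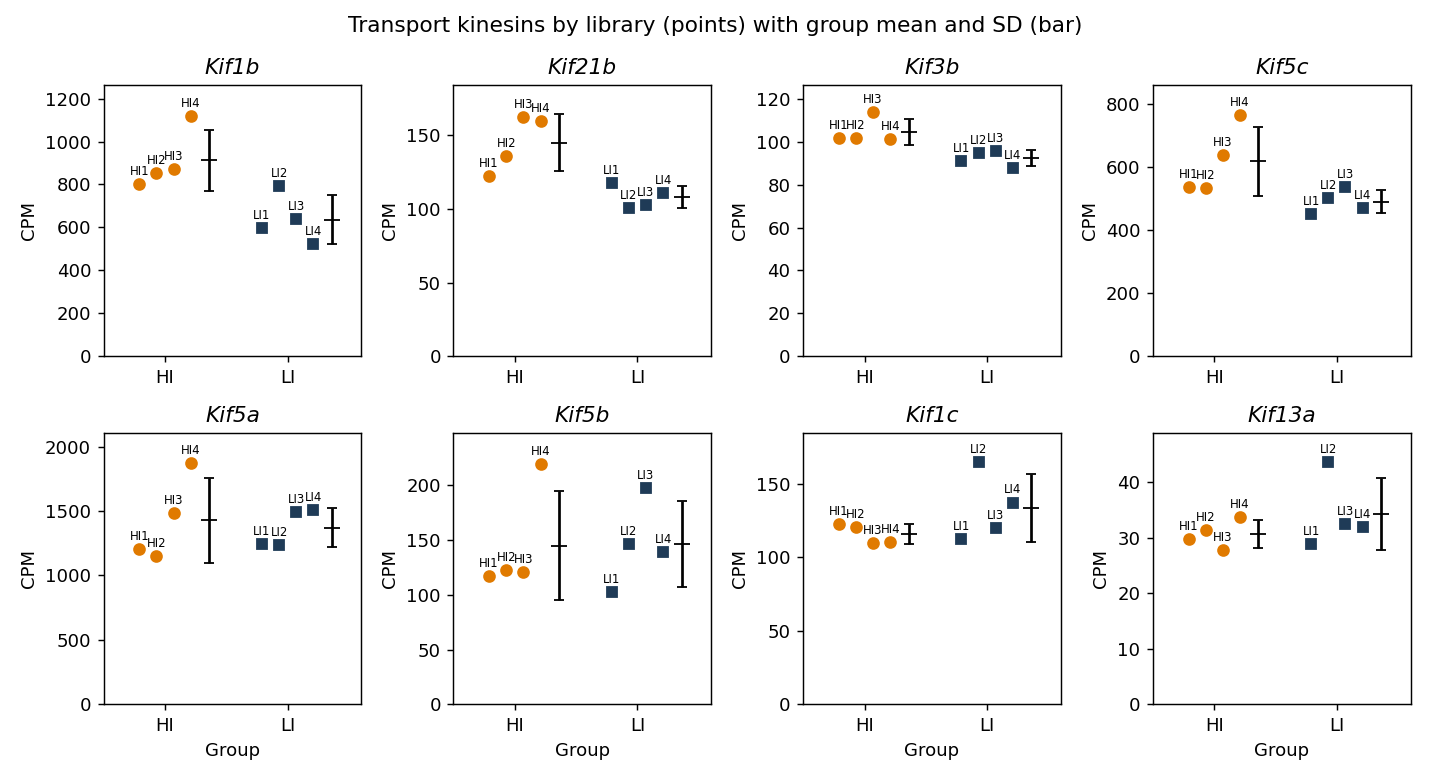
CPM of 8 transport kinesins by library, circles for HI and squares for LI, with the group mean and SD as a bar beside each group. Kif1b, Kif21b and Kif3b show no overlap between groups, Kif5a and Kif5b are high in HI4 and, for Kif5b, LI3, and Kif1c and Kif13a are highest in LI2.

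Of the kinesin-1 heavy chains, Kif5c had the highest log2 fold change, with no test between them. Kif5c had 535, 533, 637 and 766 CPM over the HI libraries 1 to 4 and 451, 502, 537 and 470 CPM over the LI libraries 1 to 4, so that HI1 and HI2 fell just below LI3. Its means were 618 ± 110 and 490 ± 37.7 CPM (SD, n = 4 each), with a log2 fold change of 0.33 ± 0.14 (SE, adjusted p = 1, edgeR), which was 0.21 without HI4. Kif5a had 1202, 1150, 1483 and 1876 CPM in HI and 1247, 1234, 1495 and 1507 CPM in LI. HI1 and HI2 lay below every LI library and HI4 above every one, and the log2 fold change was 0.06 ± 0.17, or -0.10 without HI4. Kif5b had 117, 123, 121 and 219 CPM in HI and 102, 146, 197 and 139 CPM in LI, a log2 fold change of -0.01 ± 0.25. HI4 and LI3 stood above the other 6 libraries in this gene.

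Shares within a family were looked at after the values of its members had been seen, and have no test. They have no length correction, and how often such shares separate the groups in genes outside the kinesins was not computed. The shares of Kif3a, Kif3b and Kif3c within their family overlapped between groups. Kif5c made up 27.4%, 28.0%, 27.0% and 25.3% of the kinesin-1 level (CPM per kilobase) over HI libraries 1 to 4 and 23.7%, 25.1%, 22.7% and 20.97% over LI libraries 1 to 4, so that HI lay above LI, with HI4 and LI2 nearest. Kif5a made up 65.3% ± 1.11 in HI and 68.2% ± 2.55 in LI, and Kif5b 7.86% ± 1.12 and 8.64% ± 1.64 (SD, n = 4 each), both overlapping between groups. The summed level of the 12 cortical neuron markers was high in the same libraries as Kif5b, at 12497 CPM in HI4 and 10629 in LI3, against 6383 to 8830 in the other 6. Of these markers 6 had values above 0 in HI minus LI, with a median of 0.03, and none was at 0. With the neuron marker level as a covariate, added after seeing the data, the log2 fold change was 0.28 for Kif5c, -0.02 for Kif5a and -0.11 for Kif5b. In a homogenate, fewer cells of a type and less RNA per cell cannot be told apart.

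Among the kinesin-3 motors, Kif1c and Kif13a had lower mean values in HI, unlike Kif1b. Kif1c had 122, 121, 109 and 111 CPM over the HI libraries 1 to 4 and 112, 165, 120 and 137 CPM over the LI libraries 1 to 4, a log2 fold change of -0.21 ± 0.13. Kif13a, which moves recycling endosomes, had 29.8, 31.4, 27.7 and 33.8 CPM in HI and 28.8, 43.7, 32.5 and 31.9 CPM in LI, a log2 fold change of -0.16 ± 0.15. LI2 was the highest library in both genes, and without it the values were -0.09 and -0.02. Kif13b, an endosomal and scaffold-binding motor, had a log2 fold change of 0.04 ± 0.20 and Kif16b, of early endosomes, 0.13 ± 0.19, with overlapping groups.

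Kinesin-3 shares, again chosen after the values, are of the summed level per kilobase of Kif1b, Kif1c, Kif13a, Kif13b and Kif16b, without Kif1a. Of this sum Kif1b took 75.6%, 77.1%, 79.9% and 82.3% over HI libraries 1 to 4. Over LI libraries 1 to 4 it took 72.3%, 70.3%, 71.8% and 65.9%. Every HI library lay above every LI library, with means of 78.8% ± 2.98 and 70.1% ± 2.92 (SD, n = 4 each). Kif1c took 15.2% ± 2.20 in HI and 22.1% ± 2.69 in LI, and Kif13a 2.39% ± 0.161 and 3.38% ± 0.213, both with every HI library below every LI library. The shares of Kif13b and Kif16b overlapped between groups, as did the CPM of Kif1c and Kif13a themselves. As the shares sum to a whole, a higher share of Kif1b lowers the others, and these shares rest in part on the Kif1b values above. They too have no length correction and no comparison with shares in genes outside the kinesins.

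Markers of myelin-forming cells also had lower mean values in HI. All 10 oligodendrocyte markers were detected and had values below 0, with a median log2 fold change of -0.61. An unadjusted p under 0.05 was reached by 1 of them, against 1.09% of all genes lower in HI, and 48.5% of all genes were above 0. Their summed level was 2081 to 2291 CPM in HI and 1772 to 6769 in LI, with LI2 the highest, as it was for Kif1c and Kif13a. With this level as a covariate, added after seeing the data, the log2 fold change was -0.05 for Kif1c, 0.04 for Kif13a, 0.68 for Kif1b and 0.36 for Kif21b. Microglia markers were below 0 in 8 of 8, with a median of -0.26. Of these, 2 were lower at an unadjusted p under 0.05, and 2 had every HI library below every LI library, against 1.14% of all genes. With a correction for transcript length, described below, the median was -0.21. Then 1 was lower at an unadjusted p under 0.05, against 0.894% of all genes, and 1 lay wholly below, against 0.963%. The microglia markers had a summed level of 234 to 283 CPM in HI and 304 to 319 in LI. The part of these cell types in the kinesin values was not tested.

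**Figure D3:**
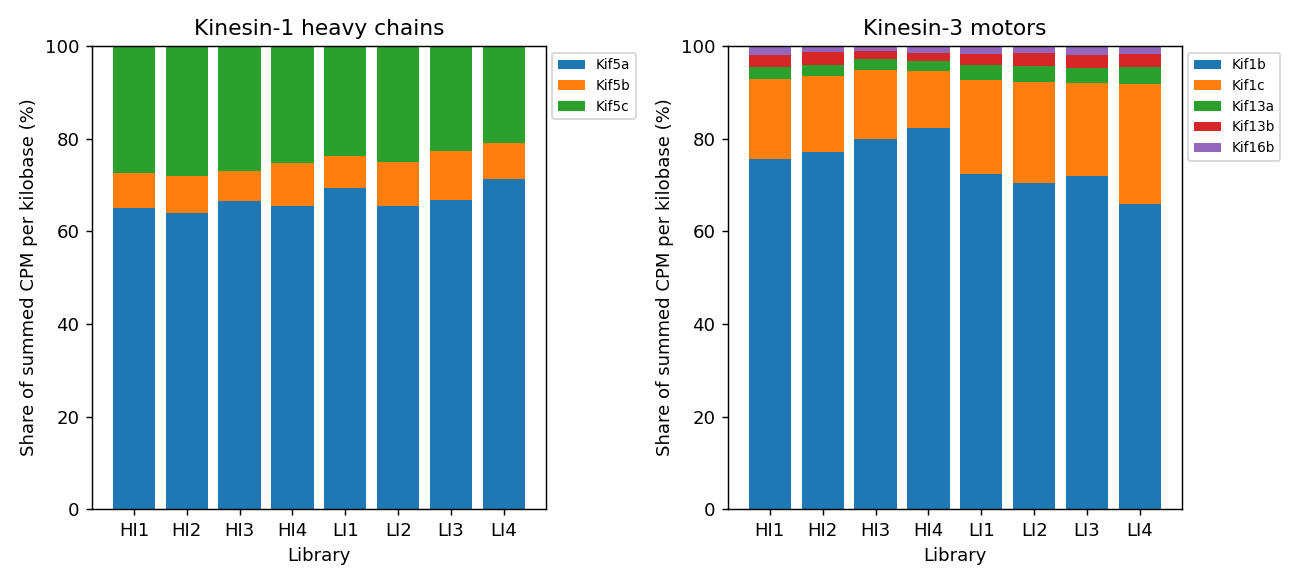
Stacked bars of the share (%) of each gene in the summed CPM per kilobase of kinesin-1 heavy chains and of kinesin-3 motors, one bar per library. The kinesin-3 motors are Kif1b, Kif1c, Kif13a, Kif13b and Kif16b, without Kif1a. Kif1b takes 75.6% to 82.3% of kinesin-3 in HI and 65.9% to 72.3% in LI, and Kif5c takes 25.3% to 28.0% of kinesin-1 in HI and 20.97% to 25.1% in LI.

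The mitotic motors overlapped between groups in each of the 5 genes. Of all genes, 2.31% had every HI library above every LI library and 1.14% every HI library below. Kif20a had 9.93, 12.9, 8.39 and 11.98 CPM over the HI libraries 1 to 4 and 10.6, 12.9, 9.32 and 8.69 CPM over the LI libraries 1 to 4, a log2 fold change of 0.05 ± 0.20. Kif23 had 3.21, 4.13, 3.72 and 3.73 CPM in HI and 3.85, 4.16, 5.36 and 2.93 CPM in LI, a log2 fold change of -0.14 ± 0.24. The rest rested on few reads. Kif20b had expected counts of 16, 9, 7 and 15 over the HI libraries and 13, 13, 14 and 13 over the LI libraries, with a log2 fold change of -0.07 ± 0.34. Kif22, with the widest SE of the 23, had 1.45, 1.82, 0.425 and 0.666 CPM over the HI libraries and 1.87, 1.01, 0.893 and 1.36 CPM over the LI libraries. Its log2 fold change was -0.29 ± 0.47, and that of Kif15 was -0.13 ± 0.27. Averaged over the 5 genes, HI3 lay lowest, 0.52 log2 units below the gene means, and HI2 highest, 0.31 above them. Proliferation markers were compared beside them. Of 21 listed, 11 passed the low-count filter, 3 above and 8 below 0, with a median log2 fold change of -0.17. Their summed level was 47.0 to 69.1 CPM in HI and 53.7 to 84.5 in LI.

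Among the remaining members, Kif2a had 121, 119, 134 and 190 CPM over the HI libraries 1 to 4 and 99.5, 110, 146 and 129 CPM over the LI libraries 1 to 4, a log2 fold change of 0.21 ± 0.18 that was 0.03 without HI4 and 0.12 without LI1. Kif19, which shortens cilia by taking apart microtubule ends, had 4.14, 2.98, 4.99 and 4.66 CPM over the HI libraries and 6.04, 3.79, 4.72 and 5.76 CPM over the LI libraries, overlapping, with a log2 fold change of -0.27 ± 0.24. This was -0.15 without HI2 and -0.39 without LI2. The ciliary Kif27 and Kif9 differed by 0.00 ± 0.18 and -0.13 ± 0.21. Beside them, 7 of 7 tested ependymal and motile cilia markers were below 0, where 48.5% of all genes were above 0 (median -0.65, summed level 32.8 to 54.3 CPM in HI and 42.6 to 60.9 in LI). Averaged over these markers, LI2 and LI3 lay 0.46 and 0.58 log2 units above the gene means. LI1 and LI4 lay at -0.03 and 0.01, near HI4 at -0.03. Kif26b, at 10.3, 8.27, 8.82 and 6.26 CPM in HI and 6.66, 7.95, 7.66 and 6.49 CPM in LI, had a log2 fold change of 0.23 ± 0.19. It was 0.12 without HI1, 0.35 without HI4 and 0.11 with a correction for transcript length, this being the longest of the 23. Kif26a, an atypical kinesin that does not hydrolyse ATP, differed by 0.14 ± 0.33 and was lowest in LI3 (9.95 CPM) and HI4 (10.8 CPM), the libraries in which Kif5b was highest. HI2 was its highest library, at 29.6 CPM.

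**Figure D4:**
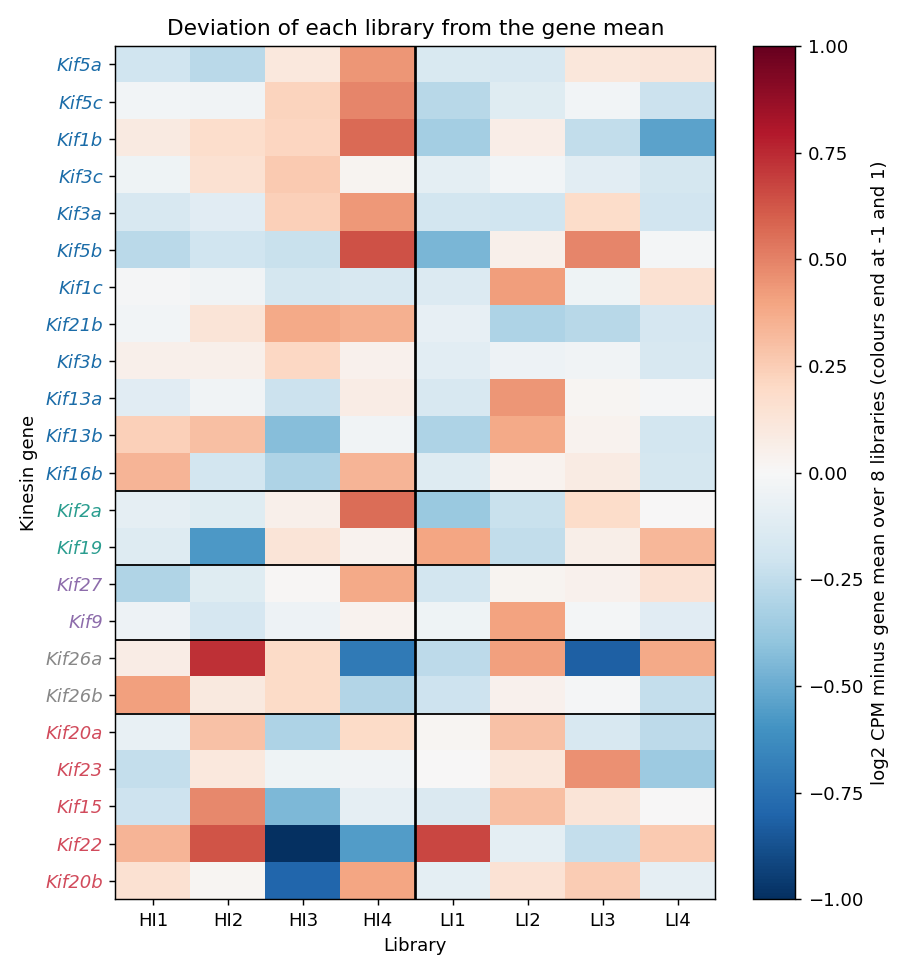
Heat map of each library's deviation from the gene mean in log2 CPM, rows being the 23 kinesins grouped by class and columns the libraries, HI left and LI right of the line. HI4 is high for most transport motors and low for Kif26a, and LI2 is high for Kif1c, Kif13a, Kif13b and Kif9.

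Transcript length entered the comparison because the tables' length column ranged from 2073 bases (Kif22) to 7422 bases (Kif26b) in the kinesins, with a median of 4214 against 2198 over all genes tested. A smooth curve of each library's deviations against length was higher in HI than in LI for long transcripts, by 0.13 log2 units at the length of Kif26b, 0.11 at that of Kif1b and -0.01 at that of Kif22. The median of the curve difference was 0.08 over transport and 0.03 over mitotic motors. The length slope was highest in HI4, at 0.13 log2 units per doubling of length, and lowest in LI1, at -0.08. It was -0.008, 0.009 and -0.005 in HI1, HI2 and HI3 and -0.03, 0.005 and -0.02 in LI2, LI3 and LI4. The slopes thus overlapped between groups, with HI4 set apart. Each of the 23 kinesins is listed with a single RefSeq transcript, so their length column was constant between libraries and carries nothing on isoforms. Among the 426 tested genes whose length varied, 0 differed in mean length by limma at an adjusted p of 0.1 and 15 at an unadjusted p under 0.05.

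With the length curve of each library as an offset in edgeR, the transport median went from 0.15 to 0.06 and the mitotic median from -0.13 to -0.18, beside -0.01 over all genes in both. Values above 0 numbered 12 of 23, against 47% of all genes. At an unadjusted p under 0.05 there were 2 kinesins, Kif1b at 0.41 ± 0.15 and Kif21b at 0.33 ± 0.13, both higher in HI, against 2.57% of all genes, and 0 lower, against 0.894%. Kif5c went from 0.33 to 0.29 ± 0.13. Kif3b went from 0.18 to 0.09 ± 0.11, the curve difference at its length being 0.10 log2 units. With the length offset and without HI4, a fit added after seeing the data, the values were 0.34 for Kif1b, 0.32 for Kif21b, 0.18 for Kif5c and 0.13 for Kif3b.

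After the correction Kif1b, Kif21b and Kif3b all overlapped between groups. Length-corrected log2 CPM of Kif1b was 9.61, 9.70, 9.80 and 9.97 over HI libraries 1 to 4 and 9.36, 9.66, 9.35 and 9.04 over LI libraries 1 to 4, so that LI2 lay between HI1 and HI2. For Kif21b it was 6.90, 7.06, 7.37 and 7.18 in HI and 7.004, 6.68, 6.71 and 6.80 in LI, with LI1 above HI1. In 0 kinesins did HI lie wholly above LI, against 1.83% of all genes. HI lay wholly below LI in Kif1c and Kif13a, which held for 0.963% of all genes. The length-corrected log2 fold change was -0.26 ± 0.13 for Kif1c and -0.28 ± 0.14 for Kif13a. In Kif13a the HI libraries lay between 4.84 and 4.94 and LI between 5.01 and 5.49, LI2 being the highest. In Kif1c the margin was narrow, HI1 and LI1 both rounding to 6.90.

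**Figure D5:**
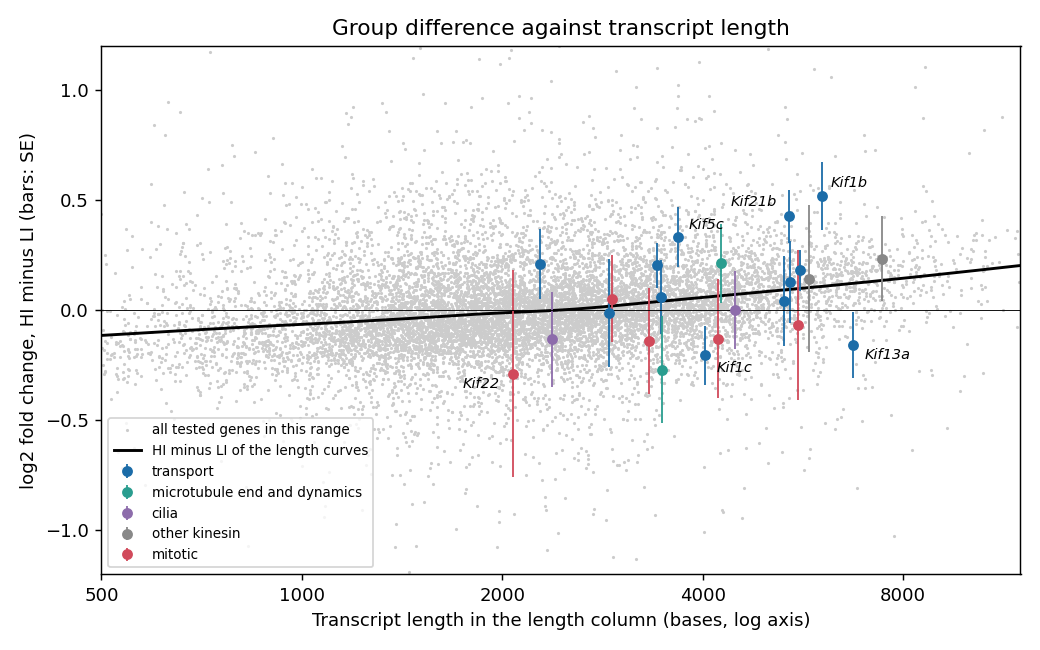
Log2 fold change (HI minus LI) against transcript length in bases on a log axis for tested genes (grey, extreme lengths and values not shown) and the 23 kinesins (coloured by class, bars are SE), with the difference between the groups' length curves as a black line. Kif1b and Kif21b lie above the line, at 0.52 and 0.43, while Kif1c and Kif13a lie below it, at -0.21 and -0.16.

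Partners of the kinesins were compared from lists of the transport pathway. Among kinesin light chains and cargo adaptors, 18 of 28 tested genes were above 0, against 48.5% of all genes, with a median log2 fold change of 0.05. Of these genes 1 was higher at an unadjusted p under 0.05, near the 3.07% of all genes, and 0 had an adjusted p under 0.1 (edgeR). With the length correction 15 were above 0, with a median of 0.00. Apba1, which links the dendritic motor Kif17 to NMDA receptor vesicles, had 242, 247, 273 and 242 CPM over the HI libraries 1 to 4 and 209, 212, 196 and 211 CPM over the LI libraries 1 to 4. Every HI library lay above every LI library, which held for 1 of the 28 genes and for 2.31% of all genes. Its log2 fold change was 0.28 ± 0.09 (SE, adjusted p = 1, edgeR), or 0.23 ± 0.10 with the length correction. Mapk8ip3, a kinesin-1 adaptor, differed by 0.21 ± 0.11 and the light chain gene Klc1 by -0.00 ± 0.12. The C-terminal kinesins Kifc2 and Kifc3 both differed by -0.12 ± 0.19.

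For dynein and dynactin, the motor complex of the opposite direction, 13 of 27 tested genes were above 0, with a median of -0.00. Dync1h1, the dynein heavy chain with a long transcript, differed by 0.27 ± 0.12 and by 0.04 with the length correction, and Pafah1b1, a dynein regulator, by 0.22 ± 0.10. Microtubule-associated proteins were above 0 in 16 of 26 (median 0.07), with Map1a at 0.23 ± 0.13, or 0.05 with the length correction, and Map2, of dendrites, at 0.37 ± 0.22. Tubulins were above 0 in 3 of 14, with a median of -0.06, Tuba8 at -0.50 ± 0.26 and Tuba1b at -0.19 ± 0.17. With the length correction 6 of 14 tubulins, 15 of 27 dynein and dynactin genes and 16 of 26 microtubule-associated protein genes were above 0. In these 3 lists 0 genes passed the adjusted threshold by edgeR. Without the length correction 0 had an unadjusted p under 0.05, against 3.07% of all genes higher and 1.09% lower. With it 1 was lower, a microtubule-associated protein gene, against 0.894% of all genes.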

How the data were processed

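RNA-seq libraries of medial prefrontal cortex, 4 HI and 4 LI by the labels' titles, were analysed. Per the file headers, the deposited tables give an expected count (estimated reads, not always whole), a TPM, an FPKM and transcript length per gene. The submitters' processing notes name Bowtie2 2.1.0. Quantification program, build and annotation: not given in the sources used here. The deposited TPM values entered alternatives only, and the deposited FPKM values were not used. Expected counts were rounded, filtered with filterByExpr (minimum count 10, minimum total 15), scaled by TMM and tested with edgeR 4.0.16 (quasi-likelihood, R 4.3.3). Benjamini-Hochberg adjustment ran over all 11631 genes, with a threshold of 0.1, the submitters' alpha. Their design text names Fisher's exact test, here an alternative. The SE is the absolute log2 fold change over the square root of F. Log2 CPM used a prior count of 2. The length correction subtracts a loess curve (span 0.5) of each library's log2 CPM deviations against log2 length. DESeq2 1.42.0 and limma 3.58.1 were alternatives. The fits were tested on simulated data. RefSeq symbols matched by transcript for 20 of the 23 kinesins and by symbol for 3. Genes given in full were a list of main transport and mitotic motors plus the 5 highest, 5 lowest and 5 smallest-p members, and the 2 smallest-p genes of each partner list. Members and lists were chosen with earlier results of these data known, and the 8 genes plotted by library after their values were seen. Total counts, 7354416 to 9476656, limit the precision of genes near the count minimum.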

Additional observations from a re-analysis of the deposited data

Results flagged for a closer look

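Among the 46 group and gene combinations of the 23 kinesins, 4 held a library set apart from the other 3 of its group by most of the group's range, where about 5% are so by chance. Kif5b stood at 219 CPM in HI4, against 117 to 123 in the other HI libraries. Kif3a stood at 158 CPM in LI3, against 121 to 123 in the other LI libraries. Both are libraries that stood apart on the first principal component. Kif3b stood at 114 CPM in HI3, against 101 to 102 in the other HI libraries. Kif9 stood at 5.05 CPM in LI2, against 3.46 to 3.70 in the other LI libraries.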

How the results depend on the processing

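The count of kinesins past the threshold was 0 under all alternatives run except Fisher's exact test on summed counts, which called 12 kinesins and 6596 of all genes and shifted the median log2 fold change of all genes to -0.11. DESeq2 called 38 genes in all. The replicate numbers do not pair the libraries by the labels: same-numbered libraries had correlations of deviations from -0.05 to 0.54, only HI2 correlated best with its own number, and the fit with the replicate block called 0 genes and 0 kinesins. The count of genes whose mean length differs was 0, and 1 without the low-count filter. The transport median lay between 0.08 and 0.19 and the mitotic median between -0.19 and 0.01 when single libraries were left out. Leaving out single libraries gave -0.28 to 0.17 for Kif5b, -0.10 to 0.15 for Kif5a, -0.25 to 0.17 for Kif20b, -0.59 to 0.000328 for Kif22 and -0.28 to 0.0164 for Kif23. Kif5a was -0.0427 by summed counts, -0.0565 without HI4 and LI3 together, -0.0200 with the neuron marker covariate and -0.13 with the length offset without HI4, where Kif2a was -0.00676. Kif5b was 0.11 with ribosomal RNA content in the model and 0.18 with the oligodendrocyte marker covariate, where Kif20b was 0.0429 and Kif13a 0.0388. Kif23 was 0.00840 without HI4 and LI3 together. The marker covariates and the length offset without HI4 were chosen after seeing the data. The cause of these changes was not tested.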
